A study of Mus musculus with 5 samples.

Results

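Imprinted genes were followed in mouse embryonic stem (ES) cells that overexpressed Satb1. A list of 38 imprinted genes was matched to the array by gene symbol, and a gene counted as measured where a probe set carried its symbol alone. This left 32 of the 38 genes, among 19938 genes measured on the arrays, each with 1 probe set. The array annotation listed no probe set for H19 and Zrsr1. It listed Snrpn, Ube3a, Mirg and Gnas only together with other genes, so these 4 were given no value.

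The induced group had 3 arrays of tetO-Satb1 ES cells given doxycycline (DOX) for 24 h, and the uninduced group had 2 arrays of tetO-Satb1 ES cells without DOX. Cells of both groups carried the transgene under the DOX-responsive tetO promoter, were kept with serum and LIF, and gave total RNA 48 h after passaging. The labels do not name the ES line or the source of the DOX-dependent activator. Nor do they say if same-group arrays stem from different cultures or clones, so p-values cover only array-to-array spread, possibly technical. Cells lacking the transgene were not given DOX, so an effect of DOX and one of Satb1 cannot be told apart.

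Imprinted genes are expressed mainly from the copy inherited from the mother or from the father. The difference is set by DNA methylation laid down in the germ line at imprinting control regions, which often steer several neighbouring genes, and it is kept in ES cells by the zinc finger protein ZFP57, TRIM28 and DNMT1. Many of these genes control fetal and placental growth, and imprints can be lost or gained when ES cells are cultured. The arrays measured the sum of both copies, so they give the level of a transcript and not its parent of origin. SATB1 organises chromatin loops by binding AT-rich DNA.

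No imprinted gene passed the test between induced and uninduced cells. In limma, 0 of 32 were higher and 0 of 32 lower at an adjusted p under 0.05, where the background over all genes was 0.00502% higher and 0.0% lower. Without adjustment, 0 of 32 had a p under 0.05 in each direction, against 0.301% of all genes higher and 0.772% lower. With limma's usual variance prior these counts were 0 as well, against 0.01% and 0.00502% of all genes (adjusted) and 0.481% and 1.07% (unadjusted). The log2 changes ran from -0.125 (Dlk1) to 0.15 (Peg10), and the 95% intervals of the 32 genes together spanned -0.38 to 0.35. A change of 1.5-fold in either direction therefore lay outside the interval of each gene, as far as the shared estimate of the spread holds. Such a change was seen in 0 of 32, against 0.0351% of all genes. In the 7 genes with an identical value on all 5 arrays, the interval rests on that shared estimate alone. Levels of 13 of the 32 were at or below the median of all genes (5.06). Whether the array can show a 1.5-fold change at low levels was not tested. The transgene did respond: Satb1 was at 8.61, 8.79 and 8.68 on the induced arrays against 4.95 and 5.34 on the uninduced arrays, an 11.7-fold difference (adjusted p = 0.00384, limma). The direction held in every alternative run, while the call was lost with the usual prior (adjusted p = 0.229), the fibroblast marker mean as a covariate (0.107) and the array number as a block (0.0823).

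**Figure D1:**
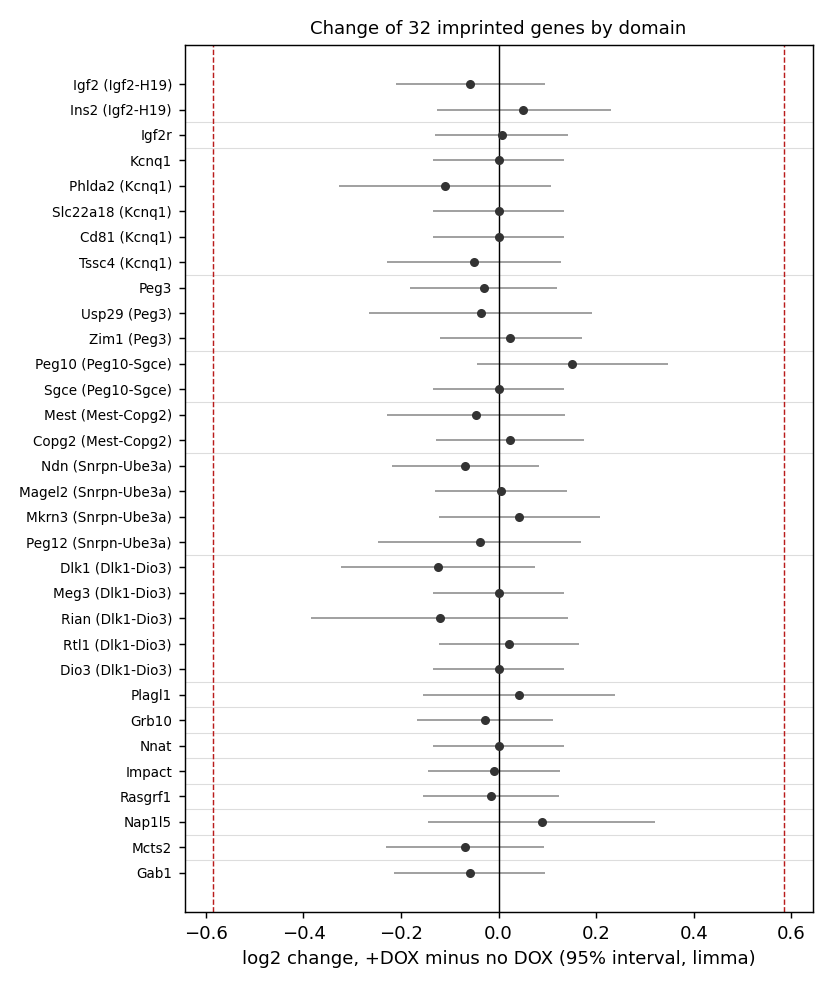
Log2 change, induced minus uninduced (x axis), of each of 32 imprinted genes (y axis, with the imprinted domain in brackets), as points with 95% intervals from limma over 3 induced and 2 uninduced arrays. Every interval holds 0 and lies inside the dashed lines at 1.5-fold.

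The size of the changes was close to that of all genes. The median absolute log2 change was 0.034 over the imprinted genes and 0.031 over all 19938 genes, and the median signed change was 0.0 in each set. An absolute change of at least 0.1 was seen in 4 of 32 imprinted genes (12.5%) against 14.2% of all genes. These 4 were Peg10, with a higher mean (1 of 32, against 6.64% of all genes), and Dlk1, Rian and Phlda2, with lower means (3 of 32, against 7.6%). By sign alone, the mean of 15 imprinted genes was lower, that of 10 was higher and 7 had an identical value on the 5 arrays, against 45.3%, 39.6% and 15.1% of all genes. Genes listed as expressed from the paternal copy numbered 21, of which 11 had a lower and 7 a higher mean. Genes listed as expressed from the maternal copy numbered 10, of which 3 had a lower and 3 a higher mean. Grb10, listed as tissue-dependent, was in neither group. The expressed copy was not measured in these cells and can differ between tissues. In all 25 imprinted genes with a difference, it was no larger than the wider of the ranges within the groups.

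**Figure D2:**
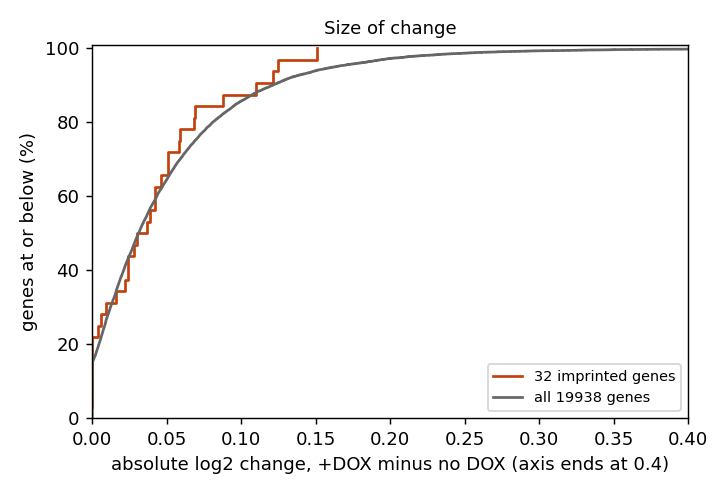
Cumulative share of genes (y axis, percent) at or below a given absolute log2 change between induced and uninduced arrays (x axis, cut at 0.4) for the 32 imprinted genes and for all 19938 genes. The curves run close together, and the imprinted genes end at 0.15.

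The arrays were alike, with a Pearson's r of 0.9972 to 0.9979 between pairs across genes, which are not independent replicates. ES cell markers averaged 8.55 to 8.59 on the induced arrays and 8.60 to 8.63 on the uninduced arrays over 15 genes. Pou5f1 was at 9.92, 9.93 and 9.96 on the induced arrays and 9.86 and 9.93 on the uninduced arrays, and Nanog at 9.80, 9.75 and 9.80 against 9.79 and 9.88. Of the 15 markers 11 were lower, 3 higher and 1 equal by mean, and none passed. Over all genes 45.3% were lower and 39.6% higher by mean. In Klf4 (-0.349 ± 0.155, standard error) and Tdgf1 (-0.206 ± 0.061), named after their values were seen, all induced arrays were below the uninduced ones. That is 2 of 15 below and 0 above, against 3.08% and 1.65% of all genes. Irradiated feeders are named in the treatment protocol, while the design text speaks of LIF only, and feeder fibroblasts are known to express Igf2, H19 and Dlk1. The mean of 25 fibroblast markers was 5.15 to 5.18 on the induced and 5.15 to 5.16 on the uninduced arrays, and Col1a1 was at 6.07 on all 3 induced arrays against 6.07 and 6.09. Col3a1 was at 5.47, 5.47 and 5.49 against 5.47 and 5.42. Fibroblast markers were higher in 12, lower in 11 and equal in 2 of the 25, and none passed. The largest change among them was in Lox, named after its values were seen, at 4.59 on all 3 induced arrays against 4.81 and 4.76 (adjusted p = 1.0, limma). Lox alone, 1 of 25, had all induced arrays on the same side, below, where 3.08% of all genes were below and 1.65% above. With the fibroblast mean as a covariate Dlk1 had a difference of -0.133, against -0.125 without it, and Igf2 had -0.09, against -0.058. Markers of primitive endoderm (8 genes), trophectoderm (8) and neuroectoderm (7) also held no gene that passed. Each list held 1 gene with separate groups, named after its values were seen. All induced arrays were above the uninduced ones in Gata6 (primitive endoderm) and Otx2 (neuroectoderm), and below in Tfap2c (trophectoderm). Over all genes 1.65% were above and 3.08% below.

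Exact ties between arrays were common, as over all genes: 27 of 32 imprinted genes (84.4%) had a tie within a group, against 80.4%. Equality was taken with no tolerance. In 10 genes a single array differed from the other 4, and this was uninduced array 2 in 3 of them and an induced array in 7. Uninduced array 2 was the highest array in 10 of 32 imprinted genes and the lowest in 0, where over all genes it was highest in 16.8% and lowest in 11.9%.

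**Figure D3:**
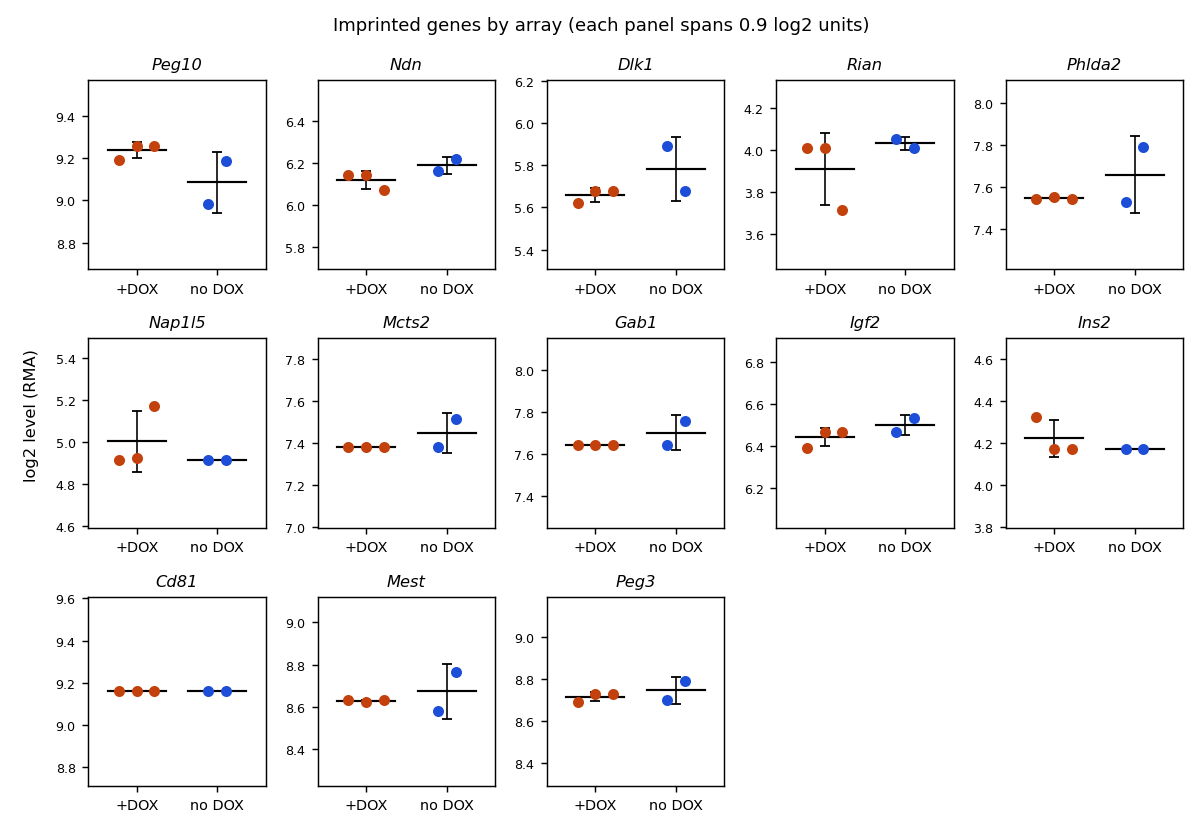
Log2 level (y axis) of 13 imprinted genes on each array, with induced arrays (+DOX, orange) left of uninduced arrays (no DOX, blue). Lines are group means, bars are SD (n = 3 and n = 2), and each panel spans 0.9 log2 units. The groups are apart by less than the size of a point in Peg10 and Ndn and touch or overlap in the others.

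The groups did not overlap in 2 genes, Peg10 above and Ndn below. That is 1 of 32 (3.12%) in each direction, where the background over all genes was 1.65% above and 3.08% below. Without induced array 1 the counts were 2 above and 2 below (6.25% each), against 3.13% and 5.34% of all genes. With a lone uninduced array, groups separate more easily. Without uninduced array 1 the counts were 1 above (3.12%) and 10 below (31.2%), against 12.8% and 18.2% of all genes, and without uninduced array 2 they were 7 (21.9%) and 4 (12.5%), against 14.5% and 14.9%.

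In the Peg10-Sgce domain, whose genes start back to back and are expressed from the paternal copy, Peg10 had the largest change of the imprinted genes. Peg10 derives from a retrotransposon and is needed to form the placenta. It was at 9.194, 9.259 and 9.261 on the induced arrays and 8.984 and 9.188 on the uninduced arrays. All induced values lay above the uninduced ones, the nearest pair at 9.194 and 9.188. The difference was 0.15 with a standard error of 0.080 (95% interval -0.045 to 0.35, limma). It was 0.049 without uninduced array 1 and 0.25 without uninduced array 2. Sgce, which encodes epsilon-sarcoglycan, was at 5.39 on all 5 arrays.

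In the Snrpn-Ube3a domain, the region tied in humans to the Prader-Willi and Angelman syndromes, 4 of 6 listed genes were measured. Ndn, which encodes the growth-restraining MAGE protein necdin, was at 6.14, 6.14 and 6.07 on the induced arrays and 6.16 and 6.21 on the uninduced arrays. All induced values lay below, and the difference of -0.07 had a standard error of 0.061 (95% interval -0.22 to 0.08). It was -0.044 without induced array 3 and -0.04 without uninduced array 2. The related MAGE gene Magel2 changed by 0.004, the makorin RING finger gene Mkrn3 by 0.04 and Peg12, a Frat family gene, by -0.04, all with overlapping arrays.

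In the Dlk1-Dio3 domain, Dlk1 and Rian had lower means, Rtl1 a higher mean, and Meg3 and Dio3 the same value on all arrays. Dlk1, which encodes a Delta-like membrane protein of fetal tissues, was at 5.62, 5.68 and 5.68 on the induced arrays and 5.89 and 5.68 on the uninduced arrays. The difference of -0.125 (standard error 0.081) rested on uninduced array 1, and without that array it was -0.018. Rian, a maternally expressed noncoding RNA that hosts small RNAs, was at 4.01, 4.01 and 3.71 on the induced arrays against 4.05 and 4.01. Its lowest array was induced array 3, and without that array the difference of -0.12 was -0.022. Meg3, the noncoding RNA of the maternal copy whose loss marks poorly developing stem cell lines in mouse, was at 3.72 on every array. Dio3, the thyroid hormone inactivating deiodinase, was at 3.60 on every array, and Rtl1, a retrotransposon-derived placental gene, changed by 0.02. Whether these levels differ from those of unexpressed genes was not tested, since the deposited values have no measure of background.

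The same domain holds a large cluster of microRNA (miRNA) genes expressed from the maternal copy, and their probe sets were looked at after the other values were seen. A probe set with a single symbol was found for 40 of the 61 miRNA genes that RefSeq places between Dlk1 and Dio3. Probe sets annotated to several genes were not counted. A probe set of a miRNA gene reads its precursor rather than the mature miRNA. Means were lower in 16, higher in 18 and equal in 6, with a median change of 0.0, and none passed in limma. All induced arrays were above the uninduced ones in 2 of 40 (Mir337 and Mir300) and below in 2 (Mir434 and Mir323). Over all genes 1.65% were above and 3.08% below. Several of these miRNAs lie on the strand opposite Rtl1 and can guide cleavage of its transcript. Some mature miRNAs of 4 such genes are shown with their seeds (bases 2 to 8) in capitals. They were picked because such miRNAs connect the maternal and paternal transcripts of the domain. The other arms, miR-127-5p, miR-136-3p and miR-431-3p, are not shown. Sequences are RefSeq's, from the plus strand within chr12:109590459-109595352, build GRCm38.p6.
mmu-miR-434-5p: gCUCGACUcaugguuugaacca
mmu-miR-434-3p: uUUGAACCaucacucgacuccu
mmu-miR-127-3p: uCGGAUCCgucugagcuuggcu
mmu-miR-136-5p: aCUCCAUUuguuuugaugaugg
mmu-miR-431-5p: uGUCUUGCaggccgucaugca

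No seed is shared among these 5. For the 40 genes 76 mature sequences were at hand, and some genes lacked an arm. Among these sequences a seed was shared by miR-376b-5p with miR-376c-5p and by miR-379-3p with miR-411-3p. Mir434 had the largest change of the 40, at 2.02, 1.96 and 2.06 on the induced arrays against 2.58 and 2.14, which is -0.35 ± 0.13 (standard error, unadjusted p = 0.039, adjusted p = 1.0, limma). Both uninduced arrays lay above the induced ones but were further from each other than the lower one was from the induced arrays. Mir127 changed by -0.09, Mir136 by 0.07 and Mir431 by 0.02, each with overlapping arrays. The largest increase was 0.25 in Mir543, at 2.41, 2.46 and 2.50 against 2.00 and 2.41.

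**Figure D4:**
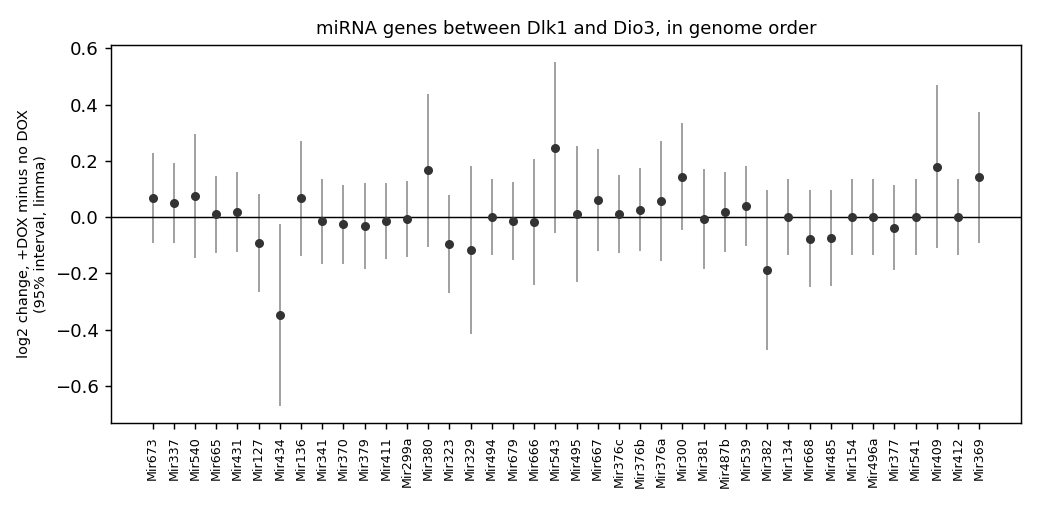
Log2 change, induced minus uninduced (y axis, 95% interval from limma), of 40 miRNA genes between Dlk1 and Dio3 in their order along the chromosome (x axis). Points scatter around 0 from -0.35 (Mir434) to 0.25 (Mir543), and every interval but that of Mir434 holds 0.

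In the Igf2-H19 domain, Igf2, the fetal growth factor gene expressed from the paternal copy, was at 6.39, 6.47 and 6.47 on the induced arrays and 6.47 and 6.53 on the uninduced arrays. The groups touched at 6.47, and the difference was -0.06 with a standard error of 0.062. It did not pass with or without the fibroblast covariate. Ins2, an insulin gene, was at 4.33 on induced array 1 and 4.17 on the other 4 arrays, so its difference of 0.05 rested on that array and was 0 without it. Igf2r, the maternally expressed receptor that clears IGF2, was at 6.82, 6.80 and 6.80 on the induced arrays and 6.80 on both uninduced arrays.

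In the Kcnq1 domain, whose maternally expressed genes are silenced on the paternal copy by a long noncoding RNA, 3 of 5 genes had the same value on all arrays. These were the potassium channel gene Kcnq1 at 4.72, the transporter gene Slc22a18 at 5.20 and the tetraspanin gene Cd81 at 9.16. Phlda2, which restrains placental growth, was at 7.55, 7.56 and 7.55 on the induced arrays and 7.53 and 7.79 on the uninduced arrays. The induced arrays lay between the uninduced ones, so the difference of -0.11 (standard error 0.088) came from uninduced array 2 and was 0.019 without it. Tssc4 was at 4.77 on induced array 1 and 4.92 on the other 4 arrays.

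In the Peg3 domain, the zinc finger gene Peg3 was at 8.69, 8.73 and 8.73 on the induced arrays and 8.70 and 8.79 on the uninduced arrays, with the groups overlapping. Its difference was -0.03, and 0.016 without uninduced array 2. Usp29, a gene of the ubiquitin-specific protease family that starts head to head with Peg3, changed by -0.04, and it had the widest spread among uninduced arrays of the imprinted genes (SD 0.20, n = 2). Zim1, a maternally expressed zinc finger gene, changed by 0.02. In the Mest-Copg2 domain, Mest, a paternally expressed gene of the hydrolase fold family, was at 8.63, 8.62 and 8.63 on the induced arrays and 8.58 and 8.77 on the uninduced arrays. Its induced values lay between the uninduced ones, the difference was -0.05, and it was 0.047 without uninduced array 2. The coatomer gene Copg2 changed by 0.02.

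Among genes that were each the only listed gene of their domain, the differences of Nap1l5, Mcts2 and Gab1 rested on single arrays. Nap1l5, a retrogene of the nucleosome assembly protein family, was at 4.92, 4.93 and 5.17 on the induced arrays and 4.92 on both uninduced arrays, a difference of 0.09 that was 0.005 without induced array 3. Mcts2, a retrogene of the translation factor gene Mcts1, was at 7.38 on every array except uninduced array 2, at 7.52. Gab1, a docking protein gene imprinted in placenta, was at 7.64 on every array except that one, at 7.76. The differences of these 2 genes, -0.07 and -0.06, were 0 without uninduced array 2. Grb10, an adaptor that limits growth, had a difference of -0.03, the zinc finger gene Plagl1 of 0.04, the Ras exchange factor gene Rasgrf1 of -0.02 and Impact, an inhibitor of the kinase GCN2, of -0.009. Nnat, which encodes the proteolipid neuronatin, was at 5.34 on all arrays.

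Genes tied to imprint maintenance and DNA methylation were taken from a list of 24, all of them measured. The list also holds de novo methyltransferase and Tet dioxygenase genes. Its counts therefore mix genes that add, keep and remove methylation. None passed in limma, with 16 lower, 7 higher and 1 equal by mean, and the median change was -0.02. Over all genes 45.3% were lower and 39.6% higher by mean. All induced arrays were below the uninduced ones in 4 of 24 and above in 1, against 3.08% and 1.65% of all genes. These were Zfp57, Dnmt3l, Tet2 and Uhrf1 below and Dnmt3a above, of which Uhrf1 and Dnmt3a were named after their values were seen. Uhrf1, whose protein brings DNMT1 to newly copied DNA, was at 8.60 on all 3 induced arrays against 8.65 and 8.67. Dnmt3a, a de novo methyltransferase gene, was at 6.66, 6.58 and 6.58 against 6.44 and 6.575. Zfp57, whose protein binds the methylated copy of imprinting control regions, was at 9.93, 9.93 and 9.94 on the induced arrays and 10.07 and 10.16 on the uninduced arrays. The groups were separate, and the difference of -0.18 had a standard error of 0.060 (unadjusted p = 0.026, adjusted p = 1.0, limma). Dnmt3l, the cofactor of the de novo methyltransferases, was at 9.15, 9.18 and 9.02 against 9.29 and 9.41, a difference of -0.23 ± 0.078 (standard error) that also had an adjusted p of 1.0 in limma. Tet2, a methylcytosine dioxygenase gene, had -0.37 ± 0.087 (standard error), with separate groups. Dppa3, which shields the maternal genome from demethylation in the zygote, was at 6.33, 6.26 and 6.06 against 6.44 and 6.33, and its groups touched.

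**Figure D5:**
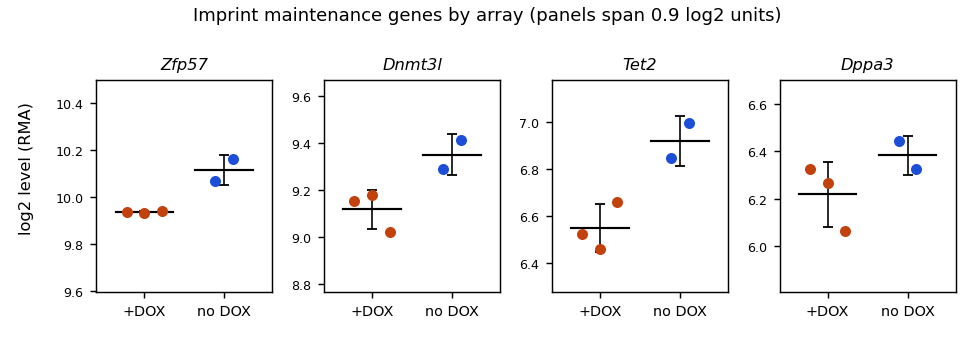
Log2 level (y axis) of 4 genes of the imprint maintenance list on each array. Induced arrays (+DOX, orange) are left of uninduced arrays (no DOX, blue). Lines are group means and bars are SD (n = 3 and n = 2). Zfp57, Dnmt3l and Tet2 were lower on every induced array, and Dppa3 touched.

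ZFP57 reads the letters TGCCGC where the CpG is methylated, so the promoter windows of the imprinted genes were searched for them on both strands. RefSeq windows of 300 bases around gene starts (250 before, 50 after) were at hand for 26 of the 32 genes, in 34 windows. The letters occurred in 10 of 26 genes (38.5%) and in 13.1% of all 27025 genes with windows. Windows of imprinted genes held a median of 17 CpG, against 7 over all windows, and had a median AT content of 39.7%, against 47.3%. The letters themselves hold a CpG, and windows of like CpG content were not compared. The 2 shares therefore do not show an excess of the letters beyond base composition. Imprinting control regions were not searched as such. Mest and Nap1l5 are shown because a window of each held 2 matches (in capitals, as TGCCGC or its reverse GCGGCA). Another Mest window, at chr6:30733256-30733555, held 0 matches, and the window shown was picked for its matches. Ndn is shown because all of its induced arrays were below the uninduced ones. The Ndn window held no match, which says only that these letters are not in it. Each is given 5′ to 3′ on the strand of its gene, build GRCm38.p6: Mest at chr6:30737800-30738099 (plus), Nap1l5 at chr6:58907077-58907376 (minus) and Ndn at chr7:62348027-62348326 (plus).
Mest: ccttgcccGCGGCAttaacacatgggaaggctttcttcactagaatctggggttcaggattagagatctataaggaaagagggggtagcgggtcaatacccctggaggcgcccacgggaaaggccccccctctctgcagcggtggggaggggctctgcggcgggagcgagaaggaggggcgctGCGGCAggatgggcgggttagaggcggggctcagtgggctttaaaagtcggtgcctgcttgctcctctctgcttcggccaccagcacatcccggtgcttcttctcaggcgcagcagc
Nap1l5: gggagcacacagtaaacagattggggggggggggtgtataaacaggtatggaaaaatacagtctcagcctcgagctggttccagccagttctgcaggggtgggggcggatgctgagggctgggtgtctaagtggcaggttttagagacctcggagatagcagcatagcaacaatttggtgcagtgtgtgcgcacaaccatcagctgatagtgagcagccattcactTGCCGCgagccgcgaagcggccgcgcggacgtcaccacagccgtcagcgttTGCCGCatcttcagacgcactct
Ndn: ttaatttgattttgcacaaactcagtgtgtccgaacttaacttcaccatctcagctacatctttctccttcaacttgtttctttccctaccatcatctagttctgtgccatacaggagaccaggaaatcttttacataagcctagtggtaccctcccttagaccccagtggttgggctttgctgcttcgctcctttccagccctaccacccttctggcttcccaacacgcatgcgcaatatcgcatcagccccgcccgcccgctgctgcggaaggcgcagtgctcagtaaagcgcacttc

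Mest had a difference of -0.05 and Nap1l5 of 0.09, neither of which passed. A match is a description of the letters and not of binding.

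A further list of 35 imprinted genes outside the 38 had 29 measured members. None passed, with 13 lower, 11 higher and 5 equal by mean and a median change of 0.0. The 4 with the smallest p were Ascl2, a trophoblast transcription factor gene, at -0.16 ± 0.091 (standard error), the flippase gene Atp10a at 0.16 ± 0.098, the potassium channel gene Kcnk9 at -0.20 ± 0.14 and the dopa decarboxylase gene Ddc at -0.12 ± 0.093. In Ddc all induced arrays were below the uninduced ones, and the arrays of the other 3 touched or overlapped. Blcap, named after its values were seen, had all induced arrays above, at 6.104, 6.104 and 6.22 against 6.08 and 6.101. That is 1 of 29 below and 1 above, against 3.08% and 1.65% of all genes.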

How the data were processed

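The 5 arrays were deposited as 1 table of log2 values (35557 probe sets), made by the authors with RMA, per the submitters' processing notes. RMA corrects background, normalizes between arrays and summarises probes, so a shift of all transcripts would not be seen. The software is not given in the sources used here, and the log2 scale was read from the values (0.79 to 13.13). Probe sets were named through the platform's annotation (21789 with 1 symbol), and 21698 matched RefSeq, assembly GRCm38.p6, by gene identifier. The probe set with the highest mean stood for a gene.

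Groups came from sample titles. All 19938 genes were fitted with limma 3.58.1 (R 4.3.3), and p-values were adjusted by Benjamini-Hochberg over the whole set. Ties between arrays make limma's usual prior too small (SD 0.005). The prior (SD 0.086, 2.87 degrees of freedom) therefore came from the 1800 genes with 5 distinct values. Those genes were picked because their arrays differ, so their spread may exceed that of the other genes and make the test cautious. A count of 0 calls thus does not show that no gene changed. The fit was tested on simulated data. An exact permutation test was left out, since the 10 splits of the arrays allow no p below 0.1. Same-numbered arrays were not shown to be paired (correlations of deviations -0.0063 and 0.0063).

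The imprinted genes, gene lists and tests were chosen with earlier results of these data known. Values on every array are given for imprinted genes whose groups did not overlap, the 10 with the largest changes and the highest-level gene of each domain with 2 or more measured genes. From the imprint maintenance and other imprinted lists the 4 genes with the smallest p are named, beside Satb1, Col1a1, Col3a1, Pou5f1 and Nanog. Alternatives were the usual prior, untied genes, trend and robust, centring, renewed quantile normalization, the mean of probe sets, genes above the median level, a feeder covariate, a replicate block, each array left out, a 1.5-fold minimum and a threshold of 0.01.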

Additional observations from a re-analysis of the deposited data

How the results depend on the processing

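No imprinted gene passed in either direction under any of the alternatives run (0 higher and 0 lower in each). For the 13 imprinted genes given by array, 14 alternative fits gave 167 results, counted per gene and fit, and none passed. The median change of the imprinted genes stayed between -0.0283 and 0.0417, and the highest value is that over the 5 genes without ties. Renewed quantile normalization gave 3 genes with all induced arrays above and 2 with all below both uninduced arrays, against 1 and 1, where 10.9% and 8.35% of all genes were separate. Among the 5 untied imprinted genes 1 lay above (20.0%) and 0 below, against 3.8% and 9.26% of all such genes. With single arrays left out these counts ran from 1 to 7 above and from 1 to 10 below, while the share of all genes ran from 2.82% to 14.5% above and from 4.73% to 18.2% below. Fewer arrays separate more easily. With single arrays left out, Phlda2 ran from -0.24 to 0.019, Mest from -0.14 to 0.047 and Peg3 from -0.076 to 0.016, and the sign turned in these 3 genes without uninduced array 2. Satb1 lost its call at 3.549 with the usual prior (adjusted p = 0.229), at 3.487 with the feeder covariate (0.107) and at 3.555 with the replicate block (0.0823); the cause was not tested. The block changed no call of an imprinted gene. With 5 arrays even the narrowest 95% intervals reached 0.135 to either side of the value.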

Other observations

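Exact values recurred between genes as well as between arrays. Over 19938 genes and 5 arrays the table held 99690 values, of which 42785 were distinct. Rian and Rtl1 of the Dlk1-Dio3 domain shared the value 4.01, Kcnq1 and Usp29 shared 4.724, and Nap1l5 and Tssc4 shared 4.917, each without tolerance. Neighbouring miRNA genes did so too: Mir154 and Mir496a were both at 2.18 on all 5 arrays.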
